A study of Mus musculus with 10 samples.

Results

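The genes that mark or shape the bone and cartilage lineages, *Sox9*, *Sp7*, *Alpl*, *Ibsp*, *Spp1*, *Mgp*, *Msx1*, *Msx2*, *Dlx5* and *Acan*, were chosen by name, and all 10 were among the 26888 genes with an RNA-seq value. They were measured in OP9 cells, a stromal line derived from the calvaria of newborn (C57BL/6xC3H)F2-op/op mice, which lack functional macrophage colony-stimulating factor. The study compared OP9 cells packed into reaggregates with the same line in flat submersed culture, to relate the 3D setting to gene expression. The 6 reaggregates were made from cells detached with trypsin and were held for 48 h at the liquid-gas interface on nitrocellulose filters with 0.8-µm pores. Reaggregates 2, 4 and 6 received IL-3, at a dose that the labels give as 200 µg/µl, and reaggregates 1, 3 and 5 did not. Of the 4 flat cultures, the labels assign 2 and 4 to the de Bruijn laboratory and name no group for 1 and 3. The paper names the groups of M. de Bruijn and A. Medvinsky as those that had kept cells for flat culture. The group that had kept the reaggregated cells was not labelled either, and the age of the flat cultures was not given in the sources used here. The paper also describes release of the reaggregated cells with collagenase and dispase before RNA was taken. Reaggregation, culture at the interface and this release went together, so they cannot be told apart.

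Osteoblasts and chondrocytes arise from common mesenchymal progenitors. SOX9 directs these progenitors into cartilage and activates genes of its matrix, such as *Col2a1* and *Acan*, whereas RUNX2 and SP7 direct them into bone, and the homeodomain proteins MSX1, MSX2 and DLX5 act in the progenitors of the skull. Mineral formation then depends on the alkaline phosphatase encoded by *Alpl* and on matrix proteins, among them bone sialoprotein (*Ibsp*), osteopontin (*Spp1*) and matrix Gla protein (*Mgp*), of which the last restrains calcification.

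Values were in RPM, in which the reads on genes of each library are scaled to a total of 1e6, and from the RPM value of 1 read the depth was between 7.35 and 9.43 M (1e6) such reads per library. A gene with 3 reads had between 0.318 and 0.408 RPM, which was taken as the floor of detection for a library and covers counting error only. Differences were computed with limma on log2(RPM + 0.5) for every gene that exceeded 0.5 RPM in at least 1 library, 16933 in all, a scale that understates the change of genes with few reads. A gene was called higher or lower where it differed 2-fold or more and its p, adjusted by Benjamini-Hochberg over all genes tested, did not exceed 0.05. Nothing in the labels shows that libraries of a group came from separate cultures, and the reaggregates 1 and 2, 3 and 4, and 5 and 6 resembled each other, so p may measure technical spread only. Since these are bulk libraries, fewer cells of a type and less RNA per cell cannot be told apart in any of the results.

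The identity of the cells was examined with lists of marker genes. Of 8 mesenchymal stroma genes, 7 exceeded 0.5 RPM in at least 1 library, *Thy1* being the exception, and their summed level was between 13630 and 16540 RPM in reaggregates and 8926, 10190, 13640 and 7329 RPM in flat cultures 1 to 4. *Col1a1* had the largest RPM of the list in every reaggregate and *Vim* in every flat culture. Of these 7, *Pdgfra*, *Pdgfrb*, *Col1a1* and *Col3a1* were called higher in reaggregates and 0 lower, where 7.32% of all genes tested were called higher and 6.53% lower. With consecutive reaggregates averaged, *Col1a1* (log2FC 1.93, limma adjusted p = 0.0844) and *Col3a1* (log2FC 4.11, limma adjusted p = 0.0689) were not called. *Col3a1* was also called lower in flat cultures 2 and 4 than in 1 and 3 (log2 difference -4.02, limma adjusted p = 0.0182). *Vim* went the other way without being called, at 4830 RPM or less in every reaggregate and 5760 RPM or more in every flat culture (log2FC -0.54, limma adjusted p = 0.0787). Of 6 blood cell genes in the table, *Ptprc* was at 0 in every library and *Cd68* had the largest RPM in all of them, and the list summed to between 3.21 and 8.79 RPM in reaggregates and to 2.39, 9.62, 8.94 and 4.69 RPM in flat cultures 1 to 4. The 6 endothelial genes summed to at most 1.23 RPM in any library and the 4 epithelial genes to at most 0.479 RPM, with *Epcam* and *Krt18* at 0 throughout. These lists therefore held few reads beside the mesenchymal one. Of 8 osteoclast genes, *Tm7sf4* was at 0 and *Acp5*, *Calcr* and *Ocstamp* (4833422F24Rik in the table) were under the floor in every library, and *Oscar* passed the filter only in reaggregate 2, at 0.817 RPM. Of the 4 that were tested, 0 were called lower in reaggregates and *Mmp9* was called higher (log2FC 4.15, SE 0.649, limma adjusted p = 0.00129, over a range of 2e-05 to 0.0357), without overlap. The osteoclast list summed to between 59.9 and 96.7 RPM in reaggregates and to 21.9, 80.2, 36.3 and 61.0 RPM in flat cultures 1 to 4. Much of this was *Nfatc1* and *Ctsk*, neither of them called. Their means were 32.55 and 24.88 RPM in reaggregates and 31.8 and 15.88 RPM in flat cultures, beside 24.95 and 1.758 RPM for *Mmp9*. In flat culture 2 *Nfatc1* was at 55.6 RPM, *Ctsk* at 24.2 RPM and *Mmp9* at 0. *Spi1* and *Lep*, also listed as markers, were not analysed here.

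The summed level of adipocyte genes, most of it *Fabp4*, separated the flat cultures. The 5 listed genes in the table summed to between 19.3 and 45.6 RPM in the reaggregates, to 31.3 and 47.4 RPM in flat cultures 1 and 3, and to 439.8 and 715.5 RPM in flat cultures 2 and 4, which carry the de Bruijn label. *Fabp4*, a lipid carrier of adipocytes, had the largest RPM of them in every library, at 435 and 711 RPM in flat cultures 2 and 4. *Retn* was at 0 in every library, and *Adipoq*, which defines adipocytes, had a mean of 0.370 RPM in reaggregates and 0.180 RPM in flat cultures. *Adipoq* was at 0, 0.358, 0.24 and 0.121 RPM in flat cultures 1 to 4 and was not called between their labels (log2 difference 0.26, limma adjusted p = 0.66). *Fabp4*, *Plin1* and *Cidec* were called higher in flat cultures 2 and 4 than in flat cultures 1 and 3, where 1.82% of all genes tested were called higher, but *Plin1* and *Cidec* passed the filter only in flat cultures 2 and 4. *Fabp4* was also called lower in reaggregates than in all flat cultures (log2FC -2.37, limma adjusted p = 0.0385). That last call was lost without any single reaggregate (log2FC -2.50 to -2.26) or without flat culture 2 (-1.85) or 4 (-1.61), and against flat cultures 1 and 3 alone the log2FC was -0.45 (limma adjusted p = 0.361), over a range of 8.26e-06 to 0.361. Between the flat labels *Mgp* and *Sp7* differed in the same direction as *Fabp4* and *Alpl* in the opposite one, and the part of adipocyte genes in this was not tested.

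Transcript levels of the members were ordered per kb of annotated exon, since RPM alone cannot be compared between genes. In reaggregates *Spp1* was highest, at 1929 ± 1056 RPM per kb (n = 6, SD), followed by *Mgp* at 317 ± 66.6, *Sox9* at 46.8 ± 5.44, *Msx1* at 7.41 ± 1.11, *Dlx5* at 3.83 ± 2.27, *Alpl* at 0.541 ± 0.366, *Ibsp* at 0.119 ± 0.117 and *Sp7* at 0.0418 ± 0.0543 RPM per kb. In flat cultures the order was *Spp1* at 4601 ± 2728 RPM per kb (n = 4, SD), *Mgp* at 434.8 ± 436.5, *Sox9* at 16.7 ± 6.66, *Msx1* at 8.92 ± 7.27, *Dlx5* at 3.55 ± 2.56, *Alpl* at 0.956 ± 1.12, *Sp7* at 0.158 ± 0.162 and *Ibsp* at 0.114 ± 0.131 RPM per kb. *Spp1*, *Mgp* and *Sox9* kept this order without overlap between neighbours in either condition, whereas further down the order the ranges of *Msx1* and *Dlx5* and of *Alpl*, *Ibsp* and *Sp7* overlapped in reaggregates, and those of all neighbours from *Sox9* downward overlapped in flat cultures. *Msx2* and *Acan* were not detectable at this depth. *Acan*, the main proteoglycan of cartilage, was at 0 in all 10 libraries, and *Msx2* was at 0 in all but flat culture 2, where a fraction of a read gave 2.7e-06 RPM. The other 8 members passed the filter and were tested.

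*Sox9* (ENSMUSG00000000567, plus strand of chromosome 11, 112643538 to 112649074 in NCBI37/mm9) was at 220, 199, 193, 202, 194 and 152 RPM in reaggregates 1 to 6 and at 55.9, 77.4, 103 and 39.4 RPM in flat cultures 1 to 4. Every reaggregate exceeded every flat culture, the nearest being reaggregate 6 and flat culture 3. The means were 193 ± 22.5 RPM (n = 6, SD) and 68.9 ± 27.5 RPM (n = 4, SD), a log2 fold change (log2FC) of 1.56 (SE 0.231, limma adjusted p = 0.000978). The exact permutation test, two-sided, gave p = 0.004762, the smallest that 210 splits into 6 and 4 can give. These splits treat all 10 libraries as independent. The likeness of consecutive reaggregates is thus not allowed for, and this p may be too small. *Sox9* was the only member called between the conditions, and the only one whose groups did not overlap. That is 1 of 8 members higher and 0 lower, where 7.32% of all 16933 genes tested were called higher and 6.53% lower, and where 19.1% had groups that did not overlap. The median log2FC of the 8 members was 0.052, beside 0.035 for all genes tested. *Sox9* was called against each kind of flat culture alone, with a log2FC of 1.79 against flat cultures 2 and 4 (limma adjusted p = 0.000232) and of 1.33 against flat cultures 1 and 3 (limma adjusted p = 0.00527), and over all 24 alternatives its adjusted p lay between 0.000163 and 0.0409.

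**Figure D1:**
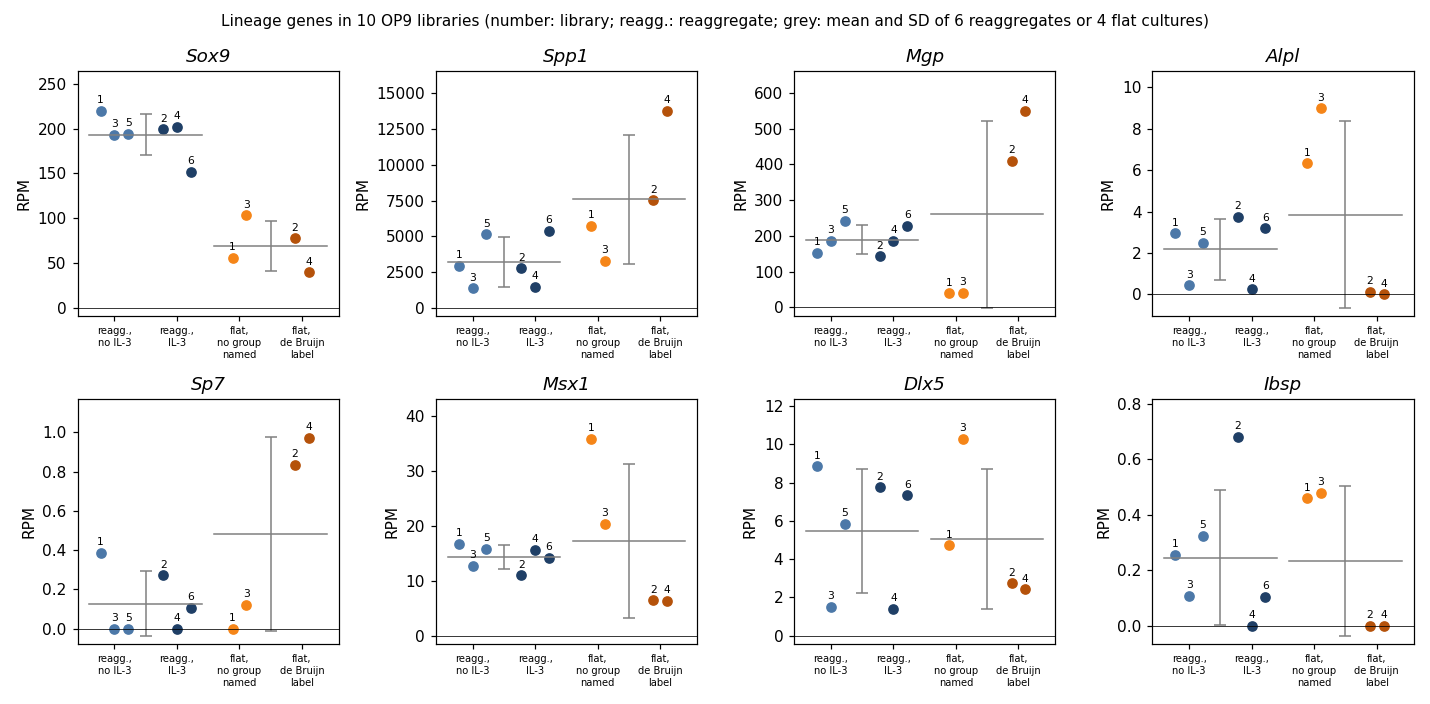
Transcript level in RPM (vertical axis) of the 8 members that were tested, in each of 10 OP9 libraries, which are grouped along the horizontal axis by culture, IL-3 and flat culture label and numbered within a condition. Grey lines and bars give mean and SD of 6 reaggregates or 4 flat cultures. *Sox9* lies at 152 RPM or more in reaggregates and at 103 RPM or less in flat cultures, while *Mgp* lies at 38.9 and 40.1 RPM in flat cultures 1 and 3 and at 410 and 551 RPM in flat cultures 2 and 4, on either side of the reaggregates.

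The pattern of *Sox9* over the 10 libraries was compared with that of the other 11660 genes with a mean of at least 5 RPM. Closest, by the root mean square difference of log2 values after centring each gene on its mean, were *Ptgfrn* at 0.14, *Aff3* at 0.15 and AC132586.1 at 0.15. *Ptgfrn* was at 255.7 ± 12.5 RPM (n = 6, SD) in reaggregates and 94.1 ± 34.1 RPM (n = 4, SD) in flat cultures, and *Aff3* at 78.5 ± 8.59 and 30.7 ± 13.9 RPM.

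*Sp7*, the osteoblast transcription factor also called Osterix, was near the limit of detection. It was at 0.385, 0.272, 0, 0, 0 and 0.106 RPM in reaggregates 1 to 6, which is at most 3 reads, and at 0, 0.835, 0.12 and 0.972 RPM in flat cultures 1 to 4. Only flat cultures 2 and 4, with 7 and 8 reads, were above the floor. The conditions overlapped, with a log2FC of -0.53 (SE 0.331, limma adjusted p = 0.233). Between the labels of the flat cultures the log2 difference was 1.33 (SE 0.253, limma adjusted p = 0.0476, flat cultures 2 and 4 minus 1 and 3), so that *Sp7* was called higher in flat cultures 2 and 4. It passed the filter only in these 2 libraries, so the filter admitted it by the group in which it was then called higher. In reads this was 15 against 1, a ratio of 15.3 with an exact 95% counting interval from 2.36 to 645. That interval covers counting error only and not the spread between cultures. The call was lost at a pseudocount of 0.1 RPM (log2 difference 2.75) or 1 RPM (0.85), without the filter on low values (1.33), and in the fit on all libraries without flat culture 1 (1.18, limma adjusted p = 0.0701), 2 (1.4, 0.0593) or 4 (1.26, 0.0733), with adjusted p over a range of 0.00681 to 0.101.

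*Msx1* and *Dlx5* encode homeodomain proteins of the early skeletal mesenchyme. *Msx1* was at 16.7, 11.0, 12.7, 15.6, 15.8 and 14.2 RPM in reaggregates 1 to 6 and at 35.9, 6.44, 20.4 and 6.32 RPM in flat cultures 1 to 4. All reaggregates lay between flat cultures 1 and 3, which were higher, and flat cultures 2 and 4, which were lower. Over all libraries the log2FC was therefore small, at 0.093 (SE 0.427, limma adjusted p = 0.880). Between the flat cultures *Msx1* narrowly missed the threshold, with a log2 difference of -2.0 (SE 0.393, limma adjusted p = 0.0512), and it passed after quantile normalization (log2 difference -1.78, limma adjusted p = 0.0254) and when the difference was fitted with all libraries in 3 groups (limma adjusted p = 0.00103, over a range of 0.000877 to 0.173).

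*Dlx5* was at 8.85, 7.76, 1.52, 1.41, 5.86 and 7.33 RPM in reaggregates 1 to 6 and at 4.72, 2.74, 10.3 and 2.43 RPM in flat cultures 1 to 4. Reaggregates 3 and 4 were the lowest of all 10 libraries, flat culture 3 was the highest, and the conditions overlapped. Neither the log2FC of 0.044 (SE 0.551, limma adjusted p = 0.958) nor the log2 difference between flat labels of -1.29 (SE 0.469, limma adjusted p = 0.186) passed the test. *Dlx6*, which lies beside *Dlx5* on chromosome 6 (6813334 to 6818568, plus strand, against 6827805 to 6832085, minus strand) and is often active with it, was at or under 1.56 RPM throughout, also highest in flat culture 3 and not called.

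*Alpl*, whose product releases phosphate for mineral, differed most between the flat cultures. It was at 2.95, 3.75, 0.443, 0.256, 2.49 and 3.19 RPM in reaggregates 1 to 6 and at 6.33, 0.119, 8.98 and 0 RPM in flat cultures 1 to 4. Flat cultures 1 and 3 exceeded every reaggregate, flat cultures 2 and 4 were below every reaggregate, and reaggregates 3 and 4 were several-fold under the other reaggregates. The log2FC over all libraries was 0.060 (SE 0.882, limma adjusted p = 0.964), whereas the log2 difference between flat labels was -3.85 (SE 0.347, limma adjusted p = 0.00836, flat cultures 2 and 4 minus 1 and 3) and was called. The flat cultures without a group name held 130 reads and the de Bruijn-labelled ones held 1, a ratio of 127 with an exact 95% counting interval from 22.4 to 5.06e+03, which again covers counting error only. The call was lost without the filter on low values (log2 difference -3.85, limma adjusted p = 0.0691) and, in the fit on all libraries, without flat culture 4 (log2 difference -3.70, limma adjusted p = 0.0516), with adjusted p over a range of 0.000239 to 0.0691. Over the alternatives the log2 difference of *Alpl* lay between -5.69 and -3.02, and that of *Mgp* between 3.36 and 3.79.

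*Ibsp*, a phosphoprotein of mineralizing bone, held at most 5 reads in any library. It was at 0.257, 0.681, 0.109, 0, 0.325 and 0.106 RPM in reaggregates 1 to 6 and at 0.46, 0, 0.479 and 0 RPM in flat cultures 1 to 4. Only reaggregate 2 and flat cultures 1 and 3 held more than 3 reads, and the conditions overlapped. The log2FC was 0.043 (SE 0.296, limma adjusted p = 0.920) and the log2 difference between flat labels was -0.96 (SE 0.212, limma adjusted p = 0.0676), neither of which was called. With a pseudocount of 0.1 RPM the difference between flat labels was called (limma adjusted p = 0.0395, over a range of 0.00731 to 0.230).

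*Spp1*, a secreted glycoprotein of bone and of many other tissues, was the most abundant member. It was at 2930, 2760, 1370, 1480, 5130 and 5400 RPM in reaggregates 1 to 6 and at 5720, 7530, 3280 and 13800 RPM in flat cultures 1 to 4. Reaggregates 3 and 4 were lowest, flat culture 4 was highest, and only flat culture 3 lay within the range of the reaggregates. The means were 3178 ± 1740 RPM (n = 6, SD) and 7582 ± 4496 RPM (n = 4, SD). The log2FC of -1.26 (SE 0.492) was not called (limma adjusted p = 0.0722). The exact permutation test, two-sided, gave p = 0.0429, again with consecutive reaggregates treated as independent. *Spp1* was called lower without reaggregate 6 (log2FC -1.45, limma adjusted p = 0.0478), without flat culture 3 (-1.60, limma adjusted p = 0.0244), after quantile normalization and against flat cultures 2 and 4 alone (-1.88, limma adjusted p = 0.0199), over a range of 0.0199 to 0.462. Between the flat labels its log2 difference was 1.23 (SE 0.771, limma adjusted p = 0.401).

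*Mgp*, the inhibitor of calcification, was at 152, 143, 186, 187, 243 and 228 RPM in reaggregates 1 to 6 and at 38.9, 410, 40.1 and 551 RPM in flat cultures 1 to 4. Flat cultures 2 and 4 were above all reaggregates, and flat cultures 1 and 3 were below all of them. The log2 difference between flat labels was 3.57 (SE 0.282, limma adjusted p = 0.00662), which was called and remained so in all 10 alternatives. Against flat cultures 2 and 4 alone *Mgp* was lower in reaggregates by a log2FC of -1.35 (SE 0.219, limma adjusted p = 0.000897), and against flat cultures 1 and 3 alone it was higher by 2.22 (SE 0.210, limma adjusted p = 0.000388). With all flat cultures together the log2FC was 0.44 (SE 0.698, limma adjusted p = 0.649), over a range of 0.000388 to 0.870. *Mgp* (minus strand of chromosome 6, 136820957 to 136824326) was thus the member whose direction after reaggregation depended most plainly on which flat cultures it was set against.

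Altogether 2 of 8 members, *Sp7* and *Mgp*, were called higher and 1, *Alpl*, was called lower in flat cultures 2 and 4 than in 1 and 3, where 1.82% of all genes tested were called higher and 3.87% lower. Of these *Sp7* was tested only because of its values in flat cultures 2 and 4, which also holds for its comparison with the reaggregates below. The median log2 difference of the members was -0.71, beside -0.17 for all genes. *Sox9* had a log2 difference of -0.45 (SE 0.466, limma adjusted p = 0.613) and was not called. Set against flat cultures 2 and 4 alone, the reaggregates differed in 6 of 8 members, with *Sox9*, *Alpl* and *Msx1* higher and *Sp7*, *Spp1* and *Mgp* lower, where 25.7% of all genes were called in either direction. Set against flat cultures 1 and 3 alone they differed in 2, *Sox9* and *Mgp*, both higher, where 9.87% of all genes were called. These comparisons share the reaggregates. Since the source of the reaggregated cells was not labelled, source and culture cannot be told apart for any gene. This includes *Sox9*, although it was called against each kind of flat culture, as well as *Sp7*, *Alpl*, *Spp1*, *Mgp* and *Msx1*. The paper puts the variance from cell source on a par with that from passage number, whose part was not tested here.

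Members also varied among the reaggregates. Reaggregates 3 and 4 were both lower than all other reaggregates for *Alpl*, *Spp1* and *Dlx5*, which is 3 of 8 members, where 19.9% of all genes tested had this layout. Reaggregates 1 and 2 were both lowest for *Mgp*, 1 of 8 members, where 8.95% of all genes did so, and reaggregates 5 and 6 were both lowest for none, where 33.2% did so.

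Because *Alpl*, *Spp1* and *Dlx5* shared this layout, the promoters of the first 2 are shown, a choice made after the values were seen. Entries were matched by symbol in the RefSeq promoter table (build GRCm38.p6), which had them for 6 members, and none for *Sox9*, *Sp7*, *Mgp* and *Dlx5*. The 250 bases before each start were searched on both strands for the RUNX letters TGTGGT, the SOX letters ACAATG and the homeodomain letters TAATTA, which 14.0%, 10.7% and 4.84% of 32851 promoters of that length hold. Capitals mark a match, which is a description of letters and not a site. Of the members whose promoters are not shown, *Ibsp* held the SOX letters, *Msx2* held the homeodomain letters, and *Msx1* and *Acan* held none. The first *Spp1* promoter, chr5:104434861-104435110 (plus strand), held the RUNX letters in reverse complement, the second, chr5:104435942-104436191 (plus strand), held the homeodomain letters, and neither *Alpl* promoter, chr4:137796385-137796634 and chr4:137766476-137766725 (minus strand), held any of the 3.
Spp1 first start: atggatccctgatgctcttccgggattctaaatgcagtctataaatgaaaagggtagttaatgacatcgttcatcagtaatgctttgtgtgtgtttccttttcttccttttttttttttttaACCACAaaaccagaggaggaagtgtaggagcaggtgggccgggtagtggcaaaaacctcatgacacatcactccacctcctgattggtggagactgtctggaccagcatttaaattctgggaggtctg
Spp1 second start: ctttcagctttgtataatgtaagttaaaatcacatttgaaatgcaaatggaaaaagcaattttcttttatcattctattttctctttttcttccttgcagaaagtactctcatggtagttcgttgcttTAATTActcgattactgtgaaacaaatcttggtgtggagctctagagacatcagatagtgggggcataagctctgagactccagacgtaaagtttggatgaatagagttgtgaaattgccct
Alpl first start: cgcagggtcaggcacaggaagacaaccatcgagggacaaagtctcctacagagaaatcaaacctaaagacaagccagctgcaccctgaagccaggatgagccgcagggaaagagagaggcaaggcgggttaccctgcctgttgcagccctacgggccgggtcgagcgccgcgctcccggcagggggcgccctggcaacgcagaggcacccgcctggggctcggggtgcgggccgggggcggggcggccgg
Alpl second start: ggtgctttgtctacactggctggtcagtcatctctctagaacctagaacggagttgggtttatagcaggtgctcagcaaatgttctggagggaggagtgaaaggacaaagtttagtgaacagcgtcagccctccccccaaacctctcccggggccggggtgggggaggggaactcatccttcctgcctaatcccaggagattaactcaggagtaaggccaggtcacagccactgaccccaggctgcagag

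IL-3, a cytokine of blood cells, was compared within the reaggregates. No member was called between the 3 reaggregates with IL-3 and the 3 without it, and the size of the log2 difference was at most 0.15, that of *Msx1*. *Sox9*, for example, was at 184 ± 28.0 RPM (n = 3, SD) with IL-3 and 202 ± 15.3 RPM (n = 3, SD) without it. Of all 16933 genes limma called 0%, neither higher nor lower, and 68 reached 0.05 by unadjusted p. The smallest unadjusted p of a member was 0.358 by limma, and 0.131 with consecutive reaggregates as a block, where 564 genes reached an unadjusted p of 0.05 and 0 were called.

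Further genes of both lineages were examined in 4 lists. Of 15 osteoblast factors, all were tested, 4 were called higher in reaggregates and 0 lower, and the median log2FC was 0.52. Of all genes tested, 7.32% were called higher and 6.53% lower, and the median was 0.035. *Zfp521*, a zinc finger repressor of osteoblast maturation, lay between 193 and 256 RPM in reaggregates with a median of 209.5 RPM and at 35.2, 25.8, 76.5 and 17.1 RPM in flat cultures 1 to 4, without overlap, a log2FC of 2.71 (SE 0.320, limma adjusted p = 0.00026). *Cdh11*, the cadherin of osteoblasts, lay between 575 and 899 RPM with a median of 671.5 RPM in reaggregates and at 145, 35.7, 307 and 25.7 RPM in flat cultures, a log2FC of 3.13 (SE 0.572, limma adjusted p = 0.00306), and it was called lower in flat cultures 2 and 4 than in 1 and 3 (log2 difference -2.78, limma adjusted p = 0.0298). The Wnt co-receptor genes *Lrp5* and *Lrp6* had log2FC values of 1.25 and 1.44.

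*Runx2*, the master factor of osteoblasts, had a mean of 78.9 ± 20.1 RPM (n = 6, SD) in reaggregates and of 46.7 ± 15.1 RPM (n = 4, SD) in flat cultures, and the groups overlapped through flat culture 3 at 66.6 RPM and reaggregates 5 and 6 at 52.5 and 56.7 RPM. Its log2FC of 0.76 (SE 0.246, limma adjusted p = 0.0374) was less than 2-fold. *Runx2* thus had many reads in all libraries, whereas *Sp7*, which acts after it in bone, had at most 8. *Dlx3*, which acts in the same lineage, was not called, with a log2FC of 0.36. It was near the floor, at 1.08 RPM or less in every library and at 0 in flat cultures 2 and 4. With consecutive reaggregates averaged, *Zfp521* remained called (limma adjusted p = 0.0170) and *Cdh11* (0.0603), *Lrp6* (0.0639) and *Lrp5* (0.0803) did not, although their log2FC values were 3.13, 1.44 and 1.26, with adjusted p over ranges of 9.45e-07 to 0.0178, 5.12e-07 to 0.0603, 8.51e-05 to 0.0658 and 0.00111 to 0.0986.

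Of 24 genes of bone matrix and mineral, 23 were in the table, *Dspp* not being analysed here, and 21 were tested. Of these 6 were called higher in reaggregates and 2 lower, beside 7.32% and 6.53% of all genes tested, with a median log2FC of 0.56. *Dmp1*, a matrix protein of osteocytes, lay between 8.85 and 16.7 RPM in reaggregates with a median of 10.9 RPM, and at 0.115, 0, 2.16 and 0 RPM in flat cultures 1 to 4. Only flat culture 3 was above the floor among the flat cultures, and no reaggregate was below it (log2FC 3.87, SE 0.440, limma adjusted p = 0.000223). *Dmp1* lies on chromosome 5 (104631632 to 104643121) near *Ibsp* (104728190 to 104740488), *Mepe* (104754348 to 104767630) and *Spp1* (104864137 to 104870069), all on the plus strand, of which *Mepe* did not pass the filter and *Ibsp* and *Spp1* were not called.

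*Enpp1*, which makes the mineralization inhibitor pyrophosphate, lay between 182 and 578 RPM in reaggregates with a median of 443.5 RPM and at 31.0, 14.5, 61.4 and 11.1 RPM in flat cultures, also without overlap, a log2FC of 3.90 (SE 0.490, limma adjusted p = 0.000371). *Ank*, which exports pyrophosphate, had a log2FC of 0.85 (SE 0.166, limma adjusted p = 0.00414), under 2-fold, and every reaggregate, at 504 RPM or more, exceeded every flat culture, at 347 RPM or less. The genes *Dmp1* and *Enpp1* were called in all 24 alternatives. *Phospho1*, a phosphatase that starts mineral formation, and *Phex*, which cleaves matrix phosphoproteins, were not called, with log2FC values of 0.56 and 0.98. *Phex* just missed a 2-fold change (limma adjusted p = 0.0466) and passed without reaggregate 4 (log2FC 1.11), flat culture 1 (1.15) or flat culture 3 (1.19), and with a pseudocount of 0.1 RPM (1.19). It was also called against flat cultures 2 and 4 alone (log2FC 1.55, limma adjusted p = 0.00452), whereas against flat cultures 1 and 3 alone the log2FC was 0.42 (limma adjusted p = 0.414).

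The type I collagen genes *Col1a1* and *Col1a2* were at 6632 ± 669 and 9630 ± 1612 RPM (n = 6, SD) in reaggregates and at 2147 ± 1620 and 3228 ± 2250 RPM (n = 4, SD) in flat cultures, with log2FC values of 1.93 (SE 0.412, limma adjusted p = 0.00643) and 1.83 (SE 0.408, limma adjusted p = 0.00787). Osteonectin (*Sparc*) was at 3523 ± 120 and 1916 ± 1063 RPM, a log2FC of 1.06 (SE 0.321, limma adjusted p = 0.0299). For all 3 the groups did not overlap and flat cultures 2 and 4 were the lowest of all libraries. The call of *Sparc* was lost without any of reaggregates 1 to 4 or of flat cultures 2 and 4, with log2FC values of 0.76 to 1.07, and in flat culture 1, at 3210 RPM, it was close to the 3360 RPM of reaggregate 2. Osteomodulin (*Omd*) was at 33.1 ± 16.1 and 6.28 ± 6.91 RPM, with a log2FC of 3.13 (SE 0.764, limma adjusted p = 0.0117), which against flat cultures 1 and 3 alone was 1.32 and not called (limma adjusted p = 0.0683).

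*Tnfrsf11b*, which encodes the osteoclast inhibitor osteoprotegerin, fell in reaggregates. It lay between 3.0 and 6.21 RPM in reaggregates with a median of 4.62 RPM, and at 12.5, 127, 9.34 and 159 RPM in flat cultures 1 to 4. All flat cultures exceeded all reaggregates, and flat cultures 2 and 4 were far above flat cultures 1 and 3. The log2FC was -3.0 (SE 0.724, limma adjusted p = 0.0111), and the log2 difference between flat labels was 3.66 (SE 0.300, limma adjusted p = 0.00716). Over all alternatives the log2FC lay between -4.83 and -1.17, and with a library left out between -3.68 and -2.34. The other gene called lower was *Fmod*, a small collagen-binding proteoglycan, at 2.39 RPM or less in every library, with a log2FC of -1.07. It passed the filter only in flat cultures, was not called without the filter (limma adjusted p = 0.0545), and was no longer called without reaggregate 3 (log2FC -1.03) or 4 (-0.98) or flat culture 2 (-0.75) or 4 (-1.04). The osteocalcin genes *Bglap1* and *Bglap2*, near-identical copies between which reads were divided, so that single values are uncertain, were not called, with log2FC values of -0.27 for each. With consecutive reaggregates averaged, *Dmp1* (limma adjusted p = 0.0141) and *Enpp1* (0.0146) remained called, and *Col1a1* (0.0844), *Col1a2* (0.0944), *Sparc* (0.182), *Omd* (0.103), *Tnfrsf11b* (0.105) and *Fmod* (0.149) did not, although their log2FC values were 1.93, 1.83, 1.06, 3.13, -2.98 and -1.06, with adjusted p over a range of 9.45e-07 to 0.272 for these genes and all alternatives.

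Of 13 cartilage factors, 11 were tested, 2 were called higher in reaggregates and 0 lower (1 lower without flat culture 1), beside 7.32% and 6.53% of all genes tested, and the median log2FC was 0.57. *Trps1*, a GATA-type repressor in chondrocytes, was at 76.0 ± 28.8 RPM (n = 6, SD) in reaggregates and 26.7 ± 10.8 RPM (n = 4, SD) in flat cultures, a log2FC of 1.47 (SE 0.330, limma adjusted p = 0.00813), with reaggregates 3 and 4 below flat culture 3. *Scx*, a factor of tendon and cartilage progenitors, was at 9.25 ± 3.56 and 3.37 ± 0.833 RPM, without overlap, a log2FC of 1.27 (SE 0.320, limma adjusted p = 0.0136). *Sox5* and *Sox6*, which encode partners of SOX9 in cartilage, were not called. *Sox5* was at 16.7 ± 2.79 and 14.2 ± 4.31 RPM, a log2FC of 0.27 (SE 0.235, limma adjusted p = 0.385), and of 0.58 against flat cultures 1 and 3 alone (limma adjusted p = 0.163). *Sox6* was at 0.682 RPM or less in every library, near the floor, with a log2FC of 0.32, or 0.78 with a pseudocount of 0.1 RPM. With consecutive reaggregates averaged, *Trps1* (limma adjusted p = 0.0657) and *Scx* (0.0852) were not called, although their log2FC values were 1.47 and 1.27, with adjusted p over ranges of 0.00236 to 0.101 and 0.0106 to 0.103.

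Of 25 genes of cartilage matrix, 18 were tested, 5 were called higher in reaggregates and 2 lower, beside 7.32% and 6.53% of all genes tested, and the median log2FC was 0.49. *Col2a1*, the main collagen of cartilage and a known target of SOX9, was among the genes that fell. It was at 273, 274, 200, 203, 286 and 275 RPM in reaggregates 1 to 6 and at 777, 931, 1520 and 1070 RPM in flat cultures 1 to 4. Every flat culture exceeded every reaggregate, flat culture 3 being highest, although *Sox9* itself was higher in reaggregates. The log2FC was -2.06 (SE 0.201, limma adjusted p = 0.000101), and *Col2a1* was called in all 24 alternatives. The log2 difference between flat labels was -0.12 (SE 0.475, limma adjusted p = 0.908).

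*Papss2*, which supplies activated sulfate for proteoglycans, was also lower, at 13.5 ± 2.95 RPM (n = 6, SD) in reaggregates and 61.5 ± 35.6 RPM (n = 4, SD) in flat cultures, a log2FC of -1.98 (SE 0.347, limma adjusted p = 0.00243). It was at 27.4, 102, 36.3 and 80.3 RPM in flat cultures 1 to 4, and over the alternatives its log2FC lay between -2.73 and -1.23. *Col11a1*, a minor fibrillar collagen of cartilage, showed the largest rise of this list. It lay between 184 and 299 RPM in reaggregates with a median of 256 RPM and at 15.2, 8.59, 51.3 and 4.98 RPM in flat cultures 1 to 4. The groups did not overlap, flat culture 3 being the highest of the flat cultures, and the log2FC was 4.10 (SE 0.484, limma adjusted p = 0.00026). *Col11a2*, *Matn4*, *Col9a3* and *Matn3* were called with log2FC values of 2.60, 2.53, 1.79 and 1.72, and flat culture 3 lay within the range of the reaggregates for the first 3 of them.

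Several of these calls were lost with 1 library left out. In place of 5 genes, 2 were called higher without reaggregate 1 or 2 or flat culture 1 or 4, and 3 without reaggregate 3 or 4. The count was also 3 without flat culture 2, where it included a gene that is not among these 5. *Col11a2* was no longer called without reaggregate 1 (log2FC 2.42) or 2 (2.41) or without flat culture 1 (2.58), 2 (2.08) or 4 (2.35), and *Matn4* was not called without any of reaggregates 1 to 4 or of flat cultures 1, 2 and 4, with log2FC values between 1.83 and 2.77. *Col9a3* was not called without any of the same 7 libraries, with log2FC values between 1.47 and 1.75. With consecutive reaggregates averaged, *Col2a1* (limma adjusted p = 0.0108), *Col11a1* (0.0161) and *Papss2* (0.0477) remained called, and *Matn3* (0.0925), *Col11a2* (0.123), *Col9a3* (0.143) and *Matn4* (0.164) did not, although their log2FC values were 1.73, 2.61, 1.80 and 2.53, with adjusted p over a range of 5.6e-07 to 0.431 for these genes and all alternatives. *Col10a1*, a marker of hypertrophic chondrocytes, was at 4.25 ± 2.0 RPM (n = 6, SD) and 4.99 ± 2.19 RPM (n = 4, SD) and was not called. *Comp* was at 30.9 and 16.8 RPM in flat cultures 2 and 4 and at 2.59 RPM or less in all other libraries, a log2 difference between flat labels of 4.45 (SE 0.475, limma adjusted p = 0.0114), and it was not called between the conditions. Against flat cultures 2 and 4 alone *Comp* was called lower in reaggregates (log2FC -3.90, limma adjusted p = 0.00099), and against flat cultures 1 and 3 alone the log2FC was 0.55 (limma adjusted p = 0.583).

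Between the flat labels, the lists gave 0 osteoblast factors higher and 1 lower (*Cdh11*) in flat cultures 2 and 4, 1 bone matrix and mineral gene higher (*Tnfrsf11b*) and 3 lower (*Omd*, *Smpd3* and *Vdr*), 0 cartilage factors in either direction, and 1 cartilage matrix gene higher (*Comp*) and 0 lower, out of 15, 21, 11 and 18 tested, where 1.82% of all genes were called higher and 3.87% lower. The medians were -0.47, -0.71, 0.006 and -0.28 on the log2 scale, beside -0.17 for all genes. *Vdr*, the vitamin D receptor, was at 129 and 200 RPM in flat cultures 1 and 3 and at 16.3 and 12.1 RPM in flat cultures 2 and 4. *Smpd3*, a sphingomyelinase needed for normal bone, was at 33.7 and 69.7 RPM in flat cultures 1 and 3 and at 2.27 and 2.31 RPM in flat cultures 2 and 4. For *Vdr* all reaggregates lay between these pairs, as they did for *Msx1* and *Alpl*.

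**Figure D2:**
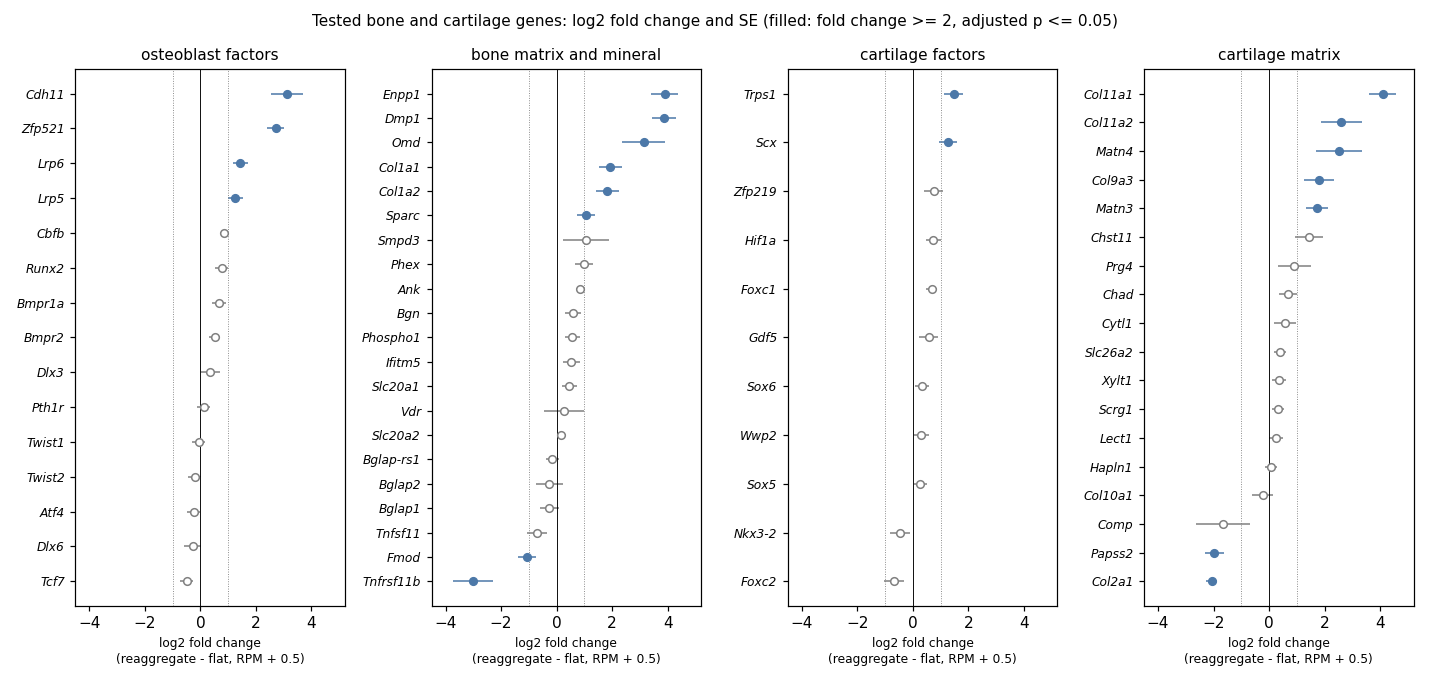
Log2 fold change, reaggregates minus flat cultures on log2(RPM + 0.5), with its SE (bars), for the tested genes of 4 lists of bone and cartilage genes. Filled points were called (2-fold or more, adjusted p not above 0.05), and dotted lines mark a 2-fold change. Called genes reach from -3.0 (*Tnfrsf11b*) to 4.10 (*Col11a1*), with *Col2a1* at -2.06.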

How the data were processed

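RNA-seq of 10 OP9 libraries was analysed, 6 from reaggregates and 4 from flat cultures, grouped by title, IL-3 and flat culture label. The authors sequenced single-end reads, aligned them with TopHat 1.2.0 and Bowtie to NCBI37/mm9, counted them on Ensembl genes in GeneProf, divided reads mapping to several places in proportion to unique reads, and deposited RPM per gene and library. Beside RPM, the authors deposited their own DESeq result for reaggregates against flat cultures, as a log2 fold change and an adjusted p-value, neither of which was used. Strand was not given in the sources used here. Depth was taken from the RPM of 1 read.

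Genes above 0.5 RPM in at least 1 library were compared on log2(RPM + 0.5) with limma 3.58.1 in R 4.3.3 (no covariates, mean-variance trend, Benjamini-Hochberg), a procedure also tested on simulated data. Flat labels were compared within flat cultures and IL-3 within reaggregates. Members were also tested by exact permutation over 210 splits. No set test was run. Alternatives changed the pseudocount, filter, scaling, trend, block, or the libraries used, or called genes by adjusted p alone, which can lose no call. Exon lengths and coordinates came from a later Ensembl annotation of the same assembly, and promoters from RefSeq. Python 3.11.15 with matplotlib 3.10.9 drew the figures.

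The members, the 4 lists and the markers were chosen with earlier results of these data known. Named were all members, a fixed part of each list, and per list and direction up to 4 further called genes of largest fold change with a group mean of at least 5 RPM. *Fmod*, *Col9a3*, *Smpd3* and *Vdr* complete counts and, like the called marker genes, were named after their values were seen. 1 gene planned for the osteoblast list was left out of it and is not reported here.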

Additional observations from a re-analysis of the deposited data

Results flagged for a closer look

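*Sox9* in reaggregate 6, at 152 RPM, stood apart from the other 5 reaggregates, which lay between 193 and 220 RPM, by more than Dixon's 95% criterion allows on the log2(RPM + 0.5) scale, on which it was applied. Of 16 groups of values examined, 8 members in 2 conditions, this was the only one, and chance gives about 1 in 20. Without reaggregate 6 *Sox9* remained called, and its log2 fold change over libraries left out in turn lay between 1.33 and 1.78.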

How the results depend on the processing

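Of 1098 comparisons of 46 named genes with an alternative between reaggregates and flat cultures, 933 kept direction and side of the threshold, 110 lost a call, 19 gained one and 36 changed sign, and the cause was not tested. *Sox9* kept its call in all 24. The number of members called, 1, was 2 after quantile normalization, 6 against the de Bruijn-labelled flat cultures and 2 against those with no group named, and 1 to 2 with a library left out. The number of all genes called, 2345, was 750 with consecutive reaggregates averaged, 4354 against de Bruijn-labelled flat cultures, 637 and 819 with only the reaggregates with or without IL-3, 4964 by adjusted p alone, and 1581 (without flat culture 4) to 3643 (without flat culture 3) with a library left out. With consecutive reaggregates averaged, the osteoblast factors called higher fell from 4 to 1, bone matrix and mineral genes from 6 to 2, cartilage factors from 2 to 0 and cartilage matrix genes from 5 to 1. The named genes that lost their call on averaging, *Cdh11*, *Lrp5*, *Lrp6*, *Col1a1*, *Col1a2*, *Sparc*, *Omd*, *Tnfrsf11b*, *Trps1*, *Scx*, *Col11a2*, *Matn3*, *Matn4*, *Col9a3*, *Fmod*, *Fabp4* and *Col3a1*, also lost it with only the reaggregates with IL-3 and with only those without it, as did *Papss2* with IL-3. Against the flat cultures with no group named, *Sparc* (log2 fold change 0.36), *Omd* (1.32), *Col1a2* (1.05), *Trps1* (1.10), *Col11a2* (1.44), *Matn3* (0.89), *Matn4* (0.95), *Col9a3* (1.23), *Fmod* (-0.53) and *Fabp4* (-0.45) lost it, and without the filter on low values, which leaves fold changes as they are, *Sparc*, *Col1a2*, *Col11a2*, *Matn4*, *Col9a3*, *Fmod* and *Fabp4* did. Median-ratio scaling and quantile normalization gave medians over all genes of 0.037 and -0.02, beside 0.035.

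Among log2 fold changes, those that changed sign against the flat cultures with no group named were *Sp7* at 0.13, *Alpl* at -1.87, *Ibsp* at -0.43, *Msx1* at -0.91, *Dlx5* at -0.60, *Dlx3* at -0.16, *Col10a1* at 0.27 and *Comp* at 0.55. Against the de Bruijn-labelled flat cultures they were *Mgp* at -1.35, *Dlx6* at 0.30 and *Sox5* at -0.029. *Alpl* was at -0.096 with a pseudocount of 1 RPM and *Dlx5* at -0.0098 after quantile normalization. With a library left out, ranges that crossed 0 were -0.63 to 0.78 for *Alpl*, -0.12 to 0.21 for *Ibsp*, -0.16 to 1.10 for *Mgp*, -0.24 to 0.56 for *Msx1*, -0.19 to 0.43 for *Dlx5* and -0.44 to 0.043 for *Bglap2*. Means of RPM gave the opposite sign to log2 values in the exact permutation test for *Alpl* (p = 0.471), *Mgp* (p = 0.524) and *Msx1* (p = 0.700).

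With the replicate number as a block, 2 members were called, *Spp1* (log2 fold change -1.72) beside *Sox9*, *Runx2* gained a call (1.01), *Sparc* (1.04) and *Fabp4* (-2.20) lost theirs, and *Alpl* was at -0.23, *Dlx5* at -0.21 and *Col10a1* at 0.15. Same-numbered libraries deviated with correlations of -0.041, -0.213, 0.072 and 0.155 across genes, so the numbers did not pair them, and only flat culture 4 correlated best with its own number.

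Between flat labels, 3 members were called, and 1 without the filter on low values. The number of all genes called, 965, was 204 without the filter, 1763 after quantile normalization, 2348 in the fit on all libraries with 3 groups, and 1497 to 2525 in that fit with a flat culture left out, where *Sox9* lay between -0.94 and 0.028. For IL-3 no alternative called a member. With a reaggregate left out, log2 differences were -0.14 to 0.30 for *Sp7*, -0.49 to 0.89 for *Alpl*, -0.40 to 0.22 for *Ibsp*, -0.47 to 0.49 for *Spp1*, -0.22 to 0.12 for *Mgp* and -0.63 to 0.70 for *Dlx5*. *Ibsp* was at 0.0031 with a pseudocount of 1 RPM and *Dlx5* at -0.012 after quantile normalization. Depth limits *Sp7*, *Ibsp*, *Msx2* and *Acan*, which held at most 8 reads in any library.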
